A study of Mus musculus with 25 samples.

Results

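The adenosine pathway was followed through 8 genes. Of these, 4 act in steps that lead to adenosine outside the cell (Entpd1, Enpp1, Cd38 and Nt5e). Another 2 were listed with its breakdown (Ada and Dpp4), and 2 encode receptors for it (Adora2a and Adora2b). The 8 genes were taken from the count table by gene symbol. All 8 were found among 55450 annotated genes, and all 8 were among the 18031 genes that passed the filter on low counts.

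Bulk RNA was sequenced from 25 melanomas that the mouse line B2905, also known as M4, formed in C57BL/6 mice. Of 40 implanted mice, 30 were given anti-CTLA-4, which blocks an inhibitory receptor of T cells, and 5 an isotype control, IgG2b, each at 10 mg/kg in repeated doses begun when tumours averaged 75 mm3. Outcome was assigned 10 to 11 days after the last dose. RNA was sequenced from 20 of the 30 anti-CTLA-4 tumours, and the other 10 were not analysed here. These were 8 responders, whose tumours became smaller, 6 stable tumours, whose size did not change, and 6 non-responders, whose tumours kept growing. The 5 IgG2b tumours are called controls, and another 5 mice left untreated were not analysed here. All tumours came from 1 cell line, every group carries the implanted line and the host's own immune cells, and the labels state no sex or age. The comparisons among outcome groups address which transcripts differ between tumours that shrank, held or grew under the same antibody, and those with controls address the difference from tumours given an antibody without that target.

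ATP released by stressed or dying cells is an alarm signal outside the cell. CD39, the product of Entpd1, removes phosphates from ATP and ADP to leave AMP, and CD73, the product of Nt5e, turns AMP into adenosine. Enpp1 and Cd38 lead to the same AMP by another way, since CD38 makes ADP-ribose from NAD and the ENPP1 enzyme releases AMP from ADP-ribose or ATP. ENPP1 also degrades the second messenger cGAMP. Adenosine deaminase, from Ada, converts adenosine to inosine, and CD26, from Dpp4, is a surface peptidase. Human CD26 is known to bind adenosine deaminase, and whether the mouse protein does was not tested here. The receptors encoded by Adora2a and Adora2b raise cyclic AMP inside the cell through the Gs protein, and the Adora2a receptor is known for restraining T cells in tumours.

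In the GENCODE release 21 annotation of the mouse genome build GRCm38, the 8 members are protein-coding genes on 6 chromosomes. Entpd1 lies at chr19:40612366-40741602 on the plus strand, Nt5e at chr9:88327197-88372092 on the plus strand, Cd38 at chr5:43868553-43912375 on the plus strand and Enpp1 at chr10:24637914-24712159 on the minus strand. Ada lies at chr2:163726584-163750239 on the minus strand and Dpp4 at chr2:62330073-62412231 on the minus strand. Adora2a lies at chr10:75316877-75334784 and Adora2b at chr11:62248984-62266453, both on the plus strand. Annotated genes within the bounds of Cd38, Dpp4 and Entpd1 took at most 0.327% of the counts of the member they overlap.

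The RefSeq promoter table (build GRCm38.p6, windows from 250 bases before to 50 after a start) held 7 of the 8 members (no Adora2a), with 2 starts for Entpd1. The 250 bases before the start are shown for Entpd1, Adora2b and Dpp4, which were each called higher than controls in both the responder and the stable group (values below). Sequences run 5′ to 3′ on the strand of the gene, and capitals mark matches to the cyclic AMP response half-site TGACG, searched on both strands.
Entpd1, first start (chr19:40612116-40612365, plus strand): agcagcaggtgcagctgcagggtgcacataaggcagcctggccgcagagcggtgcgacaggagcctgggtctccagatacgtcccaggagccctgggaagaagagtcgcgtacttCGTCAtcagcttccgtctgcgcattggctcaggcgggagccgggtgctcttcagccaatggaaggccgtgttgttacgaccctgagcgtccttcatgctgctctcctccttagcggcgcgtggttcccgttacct
Entpd1, second start (chr19:40659520-40659769, plus strand): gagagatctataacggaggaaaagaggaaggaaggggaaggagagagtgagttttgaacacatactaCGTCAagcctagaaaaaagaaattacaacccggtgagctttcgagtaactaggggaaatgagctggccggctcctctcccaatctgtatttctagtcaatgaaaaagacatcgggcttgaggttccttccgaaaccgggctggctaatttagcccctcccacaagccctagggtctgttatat
Adora2b (chr11:62248734-62248983, plus strand): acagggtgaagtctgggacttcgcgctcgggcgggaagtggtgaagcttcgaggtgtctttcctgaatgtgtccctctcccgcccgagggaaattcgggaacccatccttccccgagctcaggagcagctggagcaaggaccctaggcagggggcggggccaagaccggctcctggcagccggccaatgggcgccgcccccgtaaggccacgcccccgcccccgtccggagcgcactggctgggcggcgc
Dpp4 (chr2:62412232-62412481, minus strand): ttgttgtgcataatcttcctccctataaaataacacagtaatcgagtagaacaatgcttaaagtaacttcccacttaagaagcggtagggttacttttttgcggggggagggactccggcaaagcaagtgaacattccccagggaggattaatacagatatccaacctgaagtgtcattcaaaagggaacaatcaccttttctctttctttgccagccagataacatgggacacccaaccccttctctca
Each Entpd1 window held 1 half-site, and the windows of Adora2b and Dpp4 held none. The half-site occurred in 20.8% of 32851 promoter windows of the same length. The whole cyclic AMP response element TGACGTCA, present in 1.79% of windows, and the hypoxia response core ACGTG, present in 19.6%, were found in none of these 4 windows. Among the other members, Enpp1 held 1 match to ACGTG and 1 to TGACG that overlap each other, and the windows of Ada, Cd38 and Nt5e held no match to the 3 motifs. A match is a description of the letters only.

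Total counts ranged from 8.76 to 34.3 M per tumour. Protein-coding genes took 82.9 to 89.2% of the counts in controls, non-responders and stable tumours. In responders the share was 23.8 to 87.0% with a median of 68.8%, and 7 of 8 responders lay under every other tumour, responder 5 being the exception. Mitochondrial ribosomal RNA took 0.546 to 0.966% (controls), 0.783 to 1.06% (non-responders), 1.32 to 7.28% (stable) and 1.15 to 14.3% (responders) of counts. Every stable tumour and responder was thus above every control and non-responder, and the part of this share in the results below was not tested. The part of the protein-coding share in any result was not tested beyond the fits given with the share as a covariate or without the 2 responders of lowest share. Melanocytic marker genes (6 genes, summed in CPM, that is counts per M of library total after TMM scaling) had medians of 11700 CPM (controls), 2094 CPM (non-responders), 224 CPM (stable) and 164 CPM (responders), so the line's labelled lineage was at its clearest in controls, and no gene of the list was at 0 throughout a group. The 7 T cell markers were lowest in controls, with summed medians of 12.8, 92.3, 159 and 130 CPM. The 7 macrophage markers had summed medians of 627, 1235, 2559 and 1119 CPM, in the same order of groups. Transcript of Ctla4, the antibody's target, had medians of 0.967, 4.25, 12.7 and 10.9 CPM. In bulk tumours, fewer cells of a type and less RNA per cell cannot be told apart.

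Against controls, the pathway genes that passed the test were all higher, in each outcome group. A gene was called when its adjusted p in edgeR's quasi-likelihood test, over all 18031 genes, was under 0.05. In stable minus control, 6 of 8 members were called, all higher, where 41.8% of all genes were called and 22.2% were called higher. In responder minus control, 4 of 8 were called, all higher, where 65.0% of all genes were called and 36.1% called higher. The members' share there was under that of all genes in either direction, and above it among higher calls. In non-responder minus control, 2 of 8 were called, both higher, where 13.9% of all genes were called and 10.6% called higher. The median log2 fold change of the 8 members was 1.25, 1.22 and 0.67 in these comparisons, beside medians over all genes of 0.02, 0.16 and 0.04. The 3 comparisons use the same 5 control tumours, so they are not independent of each other. How many of all 18031 genes lacked overlap between groups was not counted. A lack of overlap is thus given below only as a description of the gene.

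Among the anti-CTLA-4 tumours, 1 or 2 members were called in each comparison. In stable minus non-responder, Entpd1 alone of the 8 was called, higher, where 14.9% of all genes were called and 7.08% called higher. In responder minus non-responder, Adora2a alone was called, higher, where 48.9% of all genes were called and 25.2% called higher, so the members' share was under that of all genes. In responder minus stable, Entpd1 and Ada were called, both lower, where 38.2% of all genes were called and 17.8% called lower. The members' share was again under that of all genes in either direction, and above it among lower calls. The members' median log2 fold changes were 0.59, 0.48 and -0.31, beside -0.02, 0.05 and 0.01 over all genes.

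**Figure D1:**
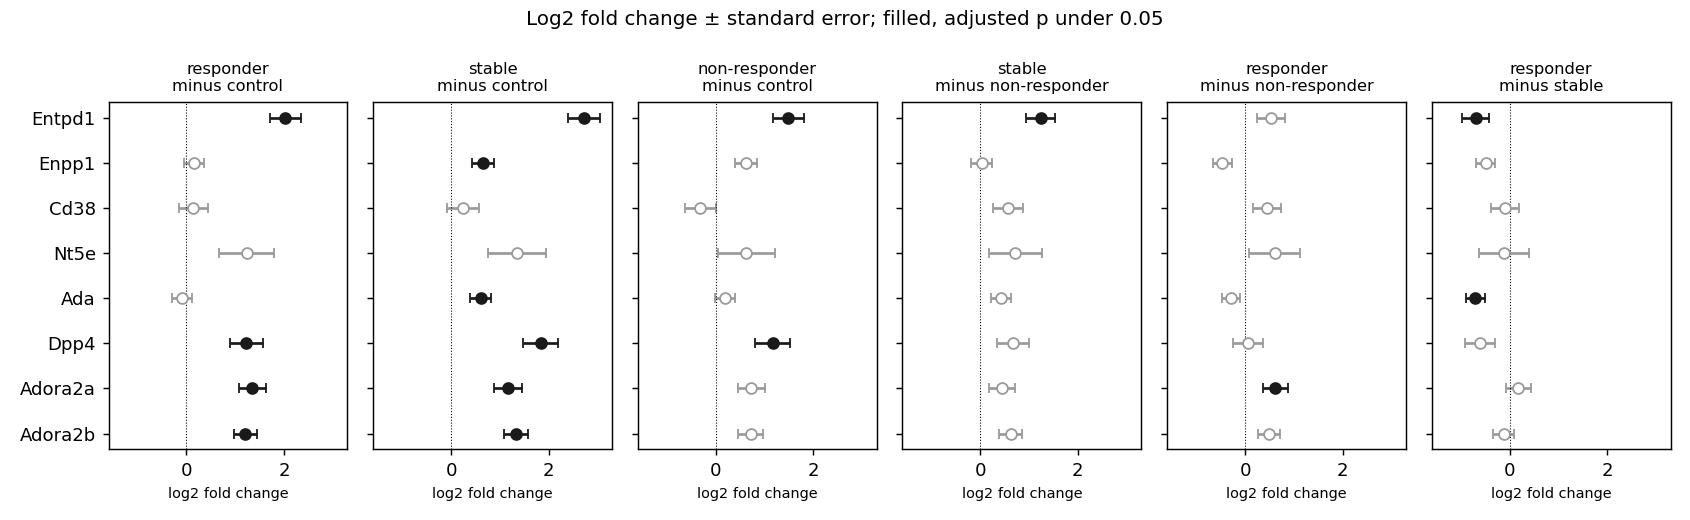
Log2 fold change with its standard error (horizontal axis) of the 8 members (rows) in the 6 comparisons (panels), from edgeR's fit of all 25 tumours, with filled points for an adjusted p under 0.05. Entpd1 is filled in 5 of the 6 panels and Cd38 and Nt5e in none.

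Of the producing enzymes, Entpd1 rose in every outcome group against controls, most in stable tumours. Its level in the 5 controls was 15.8, 23.4, 15.8, 14.4 and 24.4 CPM. Non-responders ran from 21.7 to 95.8 CPM with a median of 47.2, stable tumours from 90.8 to 184 CPM with a median of 115, and responders from 46.9 to 117 CPM with a median of 67.4. Every stable tumour and every responder lay above every control, and 5 of 6 non-responders did. The log2 fold change against controls was 2.73 ± 0.34 (SE, adjusted p = 1.58e-06; 6.61-fold) in stable tumours, 2.02 ± 0.32 (adjusted p = 9.35e-06; 4.07-fold) in responders and 1.49 ± 0.32 (adjusted p = 0.00271; 2.81-fold) in non-responders. These 3 calls were made in all 38 alternative fits.

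Stable tumours also exceeded non-responders in Entpd1, by 1.23 ± 0.30 on the log2 scale (adjusted p = 0.00853), with 4 of 6 stable tumours above every non-responder, and this call too was made in all 38 alternatives. Responders were lower than stable tumours by -0.70 ± 0.27 (adjusted p = 0.0452), a call made in 17 of the 38 alternatives and in 14 of the 25 fits that each left out 1 tumour. Once the protein-coding share entered as a covariate it was -0.46 (adjusted p = 0.562). That fit called 0 of 18031 genes in responder minus stable, so the loss is not particular to Entpd1. Without stable 3, the tumour with the most Entpd1, the difference was -0.55 (adjusted p = 0.127). Responder minus non-responder was 0.53 ± 0.28 (adjusted p = 0.112), which passed in limma's fits of the RPKM table (lowest adjusted p = 0.0231) and in the fit without non-responder 6 (0.79, adjusted p = 0.0209).

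Within each anti-CTLA-4 group, tumours with more Entpd1 had more RNA of the macrophage markers. Ordered by Entpd1, non-responders 3, 2, 1, 5, 4 and 6 had 21.7, 30.2, 41.9, 52.5, 73.8 and 95.8 CPM, and their summed macrophage markers were 749, 933, 1049, 1422, 2213 and 2404 CPM. The order was the same for both. Stable tumours 6, 1, 5, 2, 4 and 3 had 90.8, 91.0, 100, 129, 149 and 184 CPM of Entpd1 with 2155, 2298, 2342, 2786, 2777 and 3370 CPM of macrophage markers, again the same order apart from tumours 2 and 4, whose marker sums were nearly equal. Responders 2, 5 and 3, with the most Entpd1 of their group (117, 114 and 78.8 CPM), had 1665, 2997 and 1743 CPM of the markers, and the other 5 responders had 957 to 1141 CPM. Of the 7 macrophage markers, 7 were called higher in stable minus control, 6 in responder minus control, 5 in non-responder minus control and 2 in stable minus non-responder, 6 were called lower in responder minus stable, and none was called in responder minus non-responder. Among non-responders other lists moved with Entpd1 too. In the same order of non-responders, the summed neutrophil markers were 3.61, 7.69, 10.5, 18.3, 19.3 and 34.1 CPM and the T cell markers 21.4, 36.7, 69.3, 118, 115 and 174 CPM, while the melanocytic markers were 13530, 6672, 3212, 621, 977 and 481 CPM. The regulatory T cell markers of these non-responders were 28.1, 40.4, 72.7, 73.8, 65.3 and 82.1 CPM. In the same order of stable tumours the neutrophil markers were 33.5, 34.1, 27.9, 40.3, 42.7 and 57.5 CPM. The T cell markers there did not follow Entpd1, at 152, 203, 147, 172, 131 and 166 CPM. Nor did the regulatory T cell markers, at 94.4, 121, 76.0, 94.2, 72.9 and 79.9 CPM. In rising order of Entpd1, the responders were 8, 4, 7, 1, 6, 3, 5 and 2. Their neutrophil markers were 32.7, 30.2, 36.9, 31.5, 41.0, 33.4, 47.5 and 68.4 CPM, highest in responders 2 and 5. Their T cell markers were 117, 95.3, 154, 80.1, 189, 99.4, 225 and 143 CPM. Regulatory T cell markers were 109, 73.6, 113, 73.0, 121, 105, 103 and 99.9 CPM in that order. The part of each of these lists in the Entpd1 differences was not tested.

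**Figure D2:**
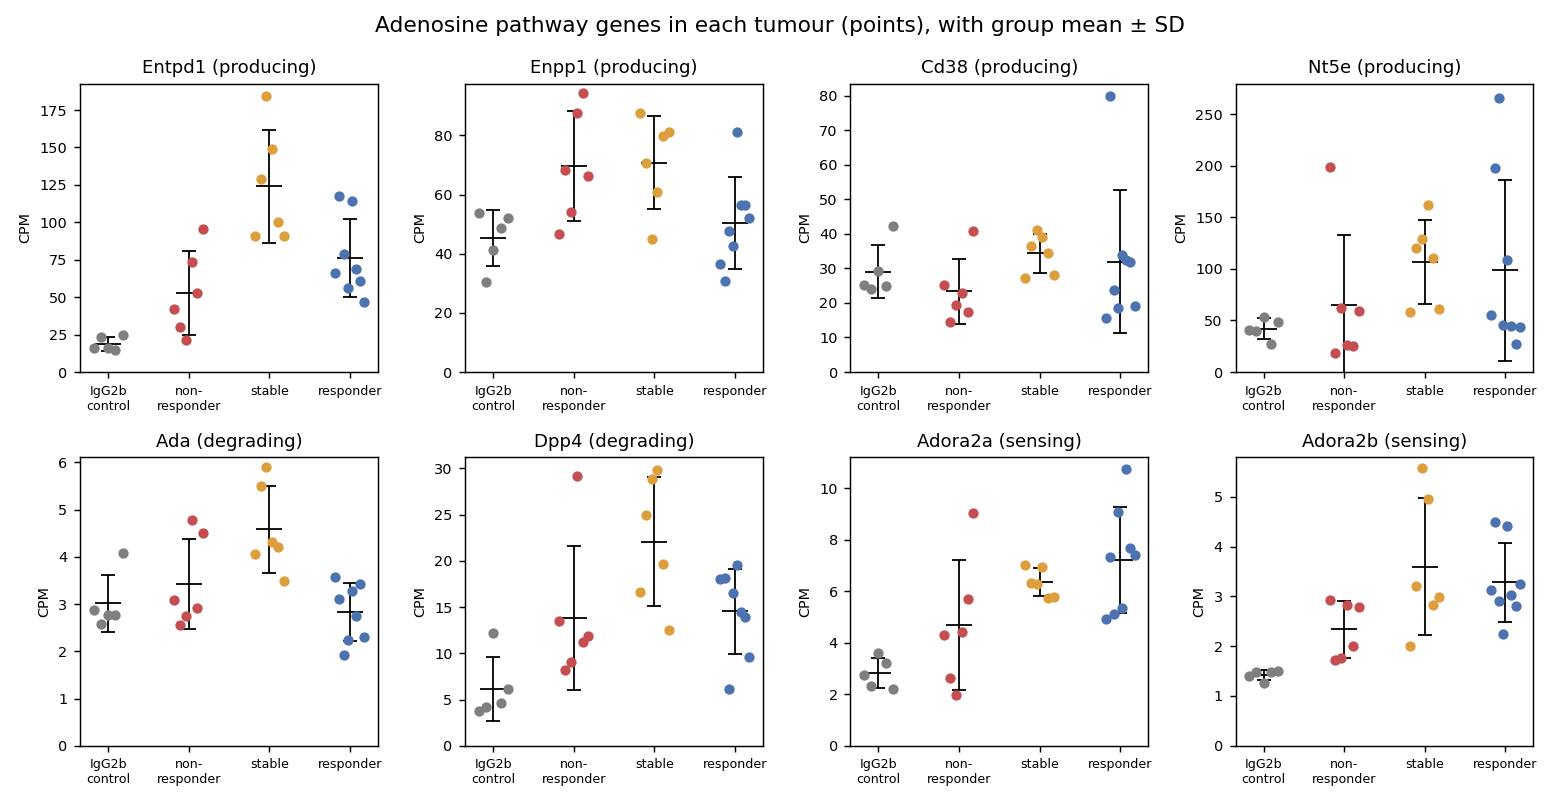
CPM (vertical axes, from 0) of each member in each of the 25 tumours, by group, with the group mean and SD as bars (for Nt5e in non-responders the SD bar passes below 0 and is cut by the axis). All stable tumours and responders lie above all controls for Entpd1, Adora2a and Adora2b, and single tumours stand far above their group for Nt5e and Cd38. The share of all genes without such overlap was not counted.

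Enpp1, whose enzyme also degrades cGAMP, was the most even of the producers. Controls had 53.7, 30.5, 41.1, 48.6 and 52.0 CPM. Non-responders had 46.5 to 94.3 CPM with a median of 67.3, stable tumours 45.0 to 87.5 CPM with a median of 75.2, and responders 30.7 to 81.0 CPM with a median of 49.7. All groups overlapped. Only stable minus control was called, at 0.65 ± 0.22 (adjusted p = 0.0217), and the adjusted p rose to 0.0712 without control 2 and to 0.0509 without stable 1. Responders were the group nearest to controls, with a log2 fold change of 0.16 ± 0.21 (adjusted p = 0.515). Their difference from non-responders was -0.46 ± 0.20 (adjusted p = 0.0535) and from stable tumours -0.49 ± 0.20 (adjusted p = 0.0519). Both of these passed without responder 5 (-0.59, adjusted p = 0.00895, and -0.62, adjusted p = 0.00778). That tumour had the most Enpp1 of the responders and a protein-coding share like that of the other groups. The responders left all lay under every other group in that share, so this fit cannot separate outcome from share. Once the share was modelled, responder minus non-responder was -0.22 (adjusted p = 0.564), in a fit that called 1810 genes against 8823 without it. Over the 38 alternatives these differences passed in 8 and 7, with adjusted p values up to 0.564 and 0.67.

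Cd38, the NAD-consuming enzyme, was called in none of the 6 comparisons and in none of the 38 alternatives of each. Controls had 25.2, 24.0, 29.1, 24.9 and 42.3 CPM. Medians were 21.1 CPM in non-responders, 35.5 CPM in stable tumours and 27.8 CPM in responders. The responders held both a low of 15.6 CPM and a high of 80.1 CPM, the latter in responder 2. Approximate 95% intervals of the log2 fold change (1.96 SE) were -0.45 to 0.74 for responder minus control, -0.39 to 0.87 for stable minus control and -0.94 to 0.31 for non-responder minus control. A change of 2-fold (a log2 fold change of 1) thus lay outside the intervals of all 3 comparisons with controls. It lay inside those of responder minus non-responder (-0.11 to 1.02) and stable minus non-responder (-0.04 to 1.16).

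Nt5e, the gene of the enzyme that makes adenosine from AMP, was the most variable member and was called in no comparison. Controls had 40.9, 40.0, 53.6, 27.4 and 48.6 CPM. Stable tumours had 57.8 to 162 CPM with a median of 116, all above every control. In non-responders the range was 18.8 to 199 CPM with a median of 42.5, and in responders 27.6 to 266 CPM with a median of 50.3. Responders 3, 2 and 5, at 266, 198 and 109 CPM, stood above the others, which had 27.6 to 55.3 CPM. Against controls the log2 fold change was 1.34 ± 0.59 in stable tumours (adjusted p = 0.0733), 1.23 ± 0.57 in responders (adjusted p = 0.0604) and 0.62 ± 0.58 in non-responders (adjusted p = 0.502). Several of these calls changed with the setting. Stable minus control passed in DESeq2 (adjusted p = 0.0486) and in edgeR's test with only the 2 groups fitted (adjusted p = 0.00166). Responder minus control passed in DESeq2 (adjusted p = 0.0386), and in edgeR's test with the stricter filter (adjusted p = 0.0381), without the 2 tumours of lowest protein-coding share (adjusted p = 0.0362), and with that share or its log2 in the fit (1.84 and 1.61, adjusted p = 0.028 and 0.0318). Without non-responder 1, at 199 CPM, stable minus control passed (adjusted p = 0.0361), as did responder minus control (adjusted p = 0.0291) and responder minus non-responder (1.37, adjusted p = 0.0253, against 0.61 with it), and non-responder minus control was -0.14. Responder minus control also passed without responder 4, 6, 7 or 8, with adjusted p values of 0.0472, 0.0466, 0.036 and 0.0461.

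Of the genes listed with breakdown, Ada had a call in responder minus stable that the authors' other deposited table, of RPKM, did not give. In counts, controls had 2.87, 2.58, 2.78, 2.77 and 4.09 CPM. Stable tumours had 3.48 to 5.91 CPM with a median of 4.26, non-responders 2.55 to 4.77 CPM with a median of 3.00, and responders 1.93 to 3.57 CPM with a median of 2.93. Of 8 responders, 7 lay under every stable tumour. Responder minus stable was -0.70 ± 0.19 (adjusted p = 0.00839), and stable minus control was 0.60 ± 0.21 (adjusted p = 0.0252). The second call was lost without control 1, 2, 3 or 4 or stable 2 or 3, each left out alone, with adjusted p values from 0.0534 to 0.0659. The first was made in all 25 such fits and lost once the protein-coding share entered as a covariate (-0.77, adjusted p = 0.328). With that covariate 0 of 18031 genes were called in responder minus stable, so the loss is not particular to Ada.

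In the RPKM table (reads per kilobase per M reads) Ada had medians of 1.31 (controls), 1.87 (non-responders), 2.23 (stable) and 2.29 (responders). Responder minus stable was then 0.01 on the log2(RPKM + 1) scale in limma's test (adjusted p = 0.936), and responder minus control was 0.43 (adjusted p = 0.00169), against -0.10 ± 0.20 (adjusted p = 0.684) in counts. The ratio of RPKM to count, on the log2 scale and centred per tumour and per gene, had a median of 0.60 in responders (range -0.15 to 0.97) and -0.12 in controls. Responder 5, whose protein-coding share was like that of the other groups, was the responder at -0.15, and the other 7 lay above every control. This shift of 0.73 was matched or passed in absolute size by 114 of 11341 genes compared. No other member shifted by more than 0.13 in any group. Low depth also touches this gene, whose counts ran from 16 to 118 per tumour. Which table is nearer to the transcript level was not tested.

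**Figure D3:**
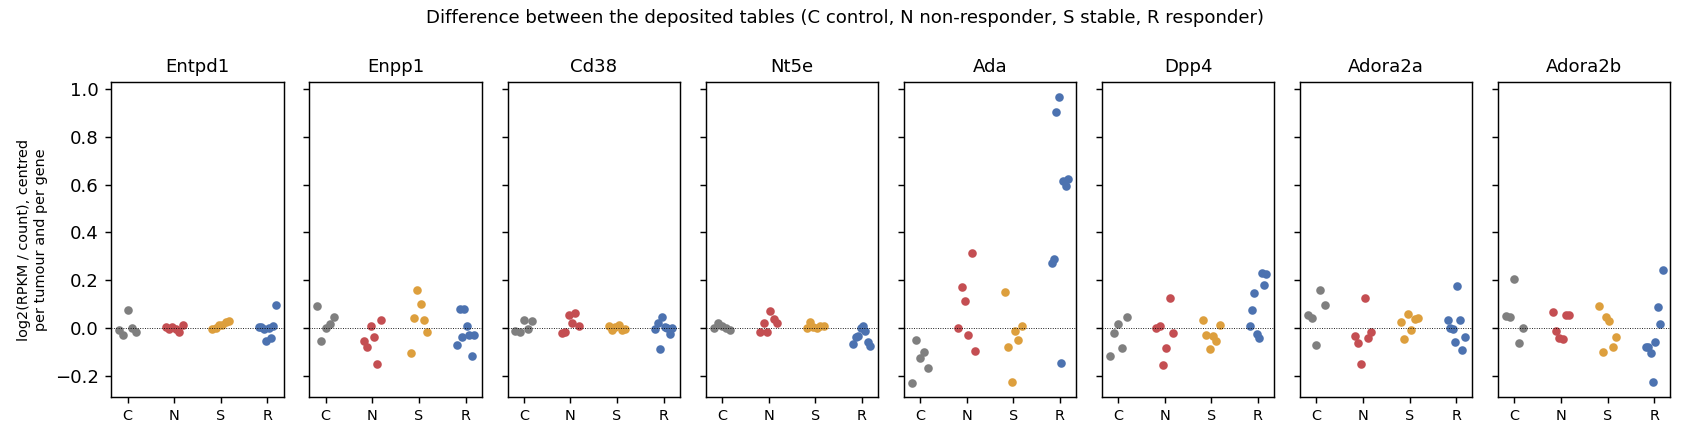
Log2 of RPKM over count, centred per tumour and per gene (vertical axis), for each member (panels) in each tumour (points) by group. Ada in responders is spread from -0.15 to 0.97, with 7 of 8 above the controls, and the other members stay near 0.

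Dpp4, the gene of the surface peptidase CD26, rose in every outcome group against controls. Controls had 3.73, 4.24, 12.2, 4.60 and 6.16 CPM. Non-responders had 8.21 to 29.2 CPM with a median of 11.6, stable tumours 12.5 to 29.8 CPM with a median of 22.3, and responders 6.12 to 19.5 CPM with a median of 15.5. All stable tumours lay above all controls, and 6 of 8 responders and 2 of 6 non-responders did. The log2 fold change was 1.84 ± 0.36 in stable tumours (adjusted p = 0.000231), 1.23 ± 0.34 in responders (adjusted p = 0.00312) and 1.17 ± 0.35 in non-responders (adjusted p = 0.0288). The first 2 calls were made in all 38 alternatives. The third was made in 29 and lost without control 1, 2, 4 or 5 (adjusted p from 0.0539 to 0.0931) and without non-responder 4, the highest of its group, where it was 0.80 (adjusted p = 0.123). The outcome groups did not differ in Dpp4 past the threshold, although stable minus non-responder was 1.04 (adjusted p = 0.0265) without non-responder 4.

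Of the receptors, Adora2a rose in stable tumours and responders against controls, with no overlap. Controls had 2.73, 2.32, 3.60, 3.21 and 2.22 CPM. Stable tumours were close together, at 5.75 to 7.00 CPM with a median of 6.32, and responders had 4.91 to 10.8 CPM with a median of 7.38. Non-responders spanned the levels of both controls and responders, from 1.98 to 9.06 CPM with a median of 4.35. The log2 fold change against controls was 1.35 ± 0.28 in responders (adjusted p = 0.00019), 1.17 ± 0.29 in stable tumours (adjusted p = 0.00182) and 0.73 ± 0.28 in non-responders (adjusted p = 0.0865). The first 2 calls were made in all 38 alternatives, and the third passed without non-responder 2 (adjusted p = 0.0428) or non-responder 3 (adjusted p = 0.0147).

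Responder minus non-responder in Adora2a was 0.62 ± 0.25 (adjusted p = 0.0449), with 2 of 8 responders above every non-responder. The call was made in 14 of 38 alternatives and in 7 of the 25 fits without 1 tumour, and over those 25 fits the log2 fold change ran from 0.46 without non-responder 3 to 0.92 without non-responder 6, with adjusted p values from 0.00301 to 0.113. Non-responders 3 and 2, with the least Adora2a (1.98 and 2.64 CPM), had the most melanocytic marker RNA of their group (13530 and 6672 CPM) and the least T cell marker RNA (21.4 and 36.7 CPM). Non-responder 6, with the most Adora2a (9.06 CPM), had the least melanocytic (481 CPM) and the most T cell marker RNA (174 CPM). Non-responder 6 also had the most macrophage, neutrophil, dendritic cell, regulatory T cell and B and plasma cell marker RNA of its group (2404, 34.1, 55.8, 82.1 and 28.9 CPM). Responders 6 and 4, with the most Adora2a of their group (10.8 and 9.08 CPM), had 189 and 95.3 CPM of T cell markers. Responder 5, with the most T cell marker RNA of its group (225 CPM), had 5.35 CPM of Adora2a. The part of each of these lists in the difference was not tested.

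Adora2b, the receptor of lower affinity for adenosine, was the least abundant member and the steadiest in controls, at 1.40, 1.47, 1.25, 1.48 and 1.50 CPM. Non-responders had 1.73 to 2.92 CPM with a median of 2.39, stable tumours 2.00 to 5.57 CPM with a median of 3.10, and responders 2.23 to 4.50 CPM with a median of 3.07. Every anti-CTLA-4 tumour lay above every control. The log2 fold change was 1.34 ± 0.25 in stable tumours (adjusted p = 0.000141) and 1.21 ± 0.24 in responders (adjusted p = 0.000144), both called in all 38 alternatives. In non-responders it was 0.71 ± 0.25 and missed the threshold (adjusted p = 0.0558), although their range did not overlap that of controls. It passed in 8 alternatives, among them the fits without non-responder 3 (adjusted p = 0.0286) and without stable 1 (adjusted p = 0.042). Between outcome groups no difference passed, and responder minus stable was -0.13 in counts (adjusted p = 0.665) but 0.03 in limma on log2(RPKM + 1) (adjusted p = 0.853). The nearest were responder minus non-responder (0.50 ± 0.22, adjusted p = 0.0652) and stable minus non-responder (0.62 ± 0.23, adjusted p = 0.0728). The gene had 14 to 114 counts per tumour.

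Levels of different genes were set side by side per length, in RPKM. In controls the order of medians was Nt5e (8.81), Cd38 (7.76), Enpp1 (4.25), Entpd1 (3.59), Ada (1.31), Adora2a (0.85), Dpp4 (0.73) and Adora2b (0.62). Neighbours in this order overlapped apart from Cd38 and Enpp1, Entpd1 and Ada, and Ada and Adora2a. In stable tumours Nt5e (24.1) and Entpd1 (23.0) shared the top and overlapped, and both Entpd1 and Cd38 (10.8), and Cd38 and Enpp1 (6.58), were without overlap. Dpp4 (3.57), Ada (2.23), Adora2a (1.86) and Adora2b (1.204) followed, each overlapping the next. Entpd1 headed the order in non-responders (10.5) and responders (15.4), followed by Nt5e (9.19 and 11.5), Cd38 (7.04 and 8.93) and Enpp1 (6.01 and 4.99), and in both groups every pair of neighbours overlapped. Entpd1 thus had rank 4 of 8 in controls and rank 1 or 2 in each anti-CTLA-4 group.

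**Figure D4:**
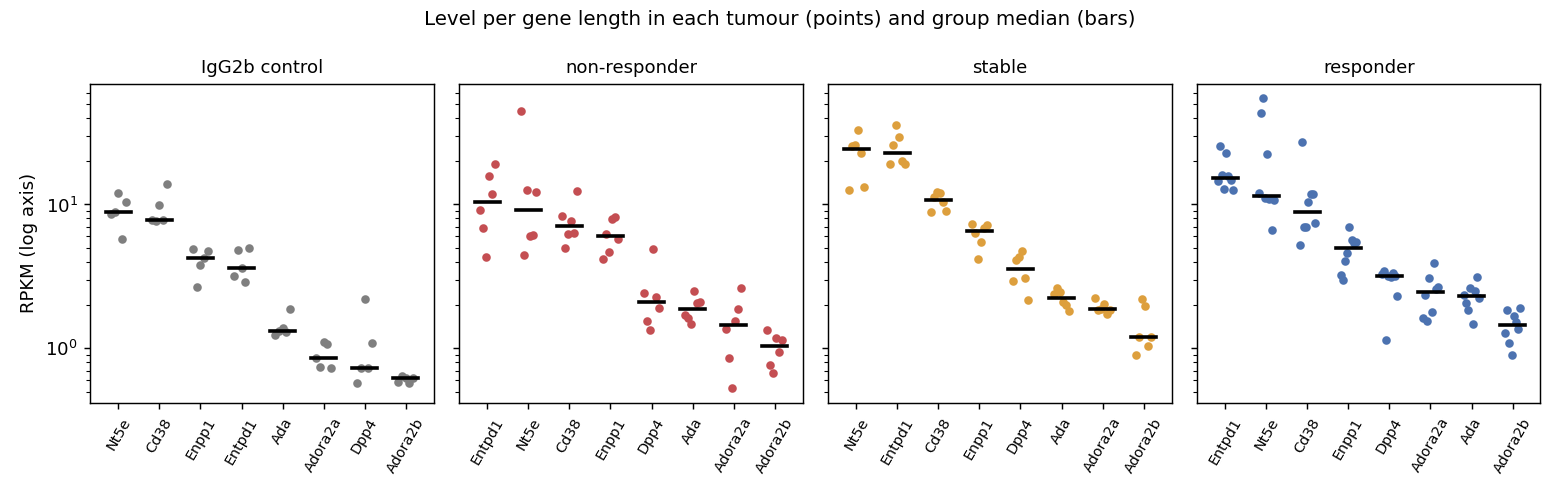
RPKM (log axis) of the members in each tumour (points), ordered by group median (bars) within each group. Entpd1 has rank 4 in controls and rank 1 or 2 in the 3 anti-CTLA-4 groups, and Adora2b is last in all 4.

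The ratio of Entpd1 to Ada in RPKM sets the first producing step beside breakdown. It was 2.23 to 3.68 in controls with a median of 2.60, 2.93 to 9.14 in non-responders with a median of 5.58, 8.05 to 14.7 in stable tumours with a median of 10.3 and 4.72 to 15.4 in responders with a median of 6.26. All stable tumours and all responders lay above all controls. From the counts, which are not per length, the median ratio was 5.68 in controls, 14.5 among non-responders, 24.9 in the stable group and 25.1 in responders (ranges 5.20 to 9.09, 7.89 to 21.2, 22.4 to 34.5 and 17.7 to 40.8). The order of stable tumours and responders in RPKM was thus not kept in counts. The ratio of the 2 receptors, Adora2a to Adora2b, overlapped between all groups, with medians of 1.47 (controls), 1.21 (non-responders), 1.53 (stable) and 1.41 (responders).

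Within groups the members varied together in part. After subtracting each group's mean from log2 CPM, Adora2b and Entpd1 had the highest Spearman correlation of the 28 pairs (0.73 over 25 tumours), and Enpp1 and Nt5e the lowest (-0.52). Adora2a was nearly unrelated to Adora2b (0.01) and to Entpd1 (0.11). Among 11527 protein-coding genes of at least 5 CPM, those whose pattern was most like that of Entpd1 were Tnfrsf1b (0.97), Ctsh (0.94) and Vsir (0.94), the genes of a TNF receptor, a lysosomal protease and the checkpoint protein VISTA. Nt5e was most like Ier3 (0.91), Etf1 (0.90) and F3 (0.87), the last being the gene of tissue factor. Cd38 was most like Pira2 (0.92), Atmin (0.91) and C1s1 (0.87), and Enpp1 most like Asrgl1 (0.89), Otud1 (0.87) and Col10a1 (0.84). The nearest to Ada were Relt (0.86), Plcg2 (0.84) and Ptafr (0.84), and to Dpp4 Vav3 (0.88), Flrt2 (0.80) and Itga11 (0.79). Adora2a had the lowest best match, with Gramd3 (0.82), Prkd2 (0.77) and Dop1a (0.76), and Adora2b was nearest to Hsd3b7 (0.83), Psme1 (0.83) and Rnf19b (0.83). These correlations are descriptions over tumours that share libraries, depth and cell make-up.

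Beyond the 8 members, 56 genes of adenosine and nucleotide metabolism and signalling were followed, of which 47 were tested. The median over the 47 was 0.39 in stable minus control, with 22 called higher and 6 lower (46.8% and 12.8%), and 0.31 in responder minus control, with 22 higher and 8 lower (46.8% and 17.0%). In non-responder minus control 14 were higher and 1 lower (29.8% and 2.13%). Among outcome groups, 12 were higher and 2 lower in stable minus non-responder, 11 higher and 7 lower in responder minus non-responder, and 3 higher and 8 lower in responder minus stable. The shares of all genes were 22.2% higher and 19.6% lower in stable minus control, 36.1% and 28.9% in responder minus control, and 10.6% and 3.29% in non-responder minus control. In stable minus non-responder the shares were 25.5% higher and 4.26% lower, beside 7.08% and 7.86% of all genes. In responder minus non-responder they were 23.4% and 14.9%, beside 25.2% and 23.8%, and in responder minus stable 6.38% and 17.0%, beside 20.5% and 17.8%.

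Of 7 other producing enzymes tested, Entpd2, Bst1 and Acpp were higher and Ahcy lower in stable minus control. Entpd2, a relative of Entpd1 that removes the last phosphate of ATP, rose from 1.73 to 3.54 CPM in controls to 8.22 to 12.9 CPM in stable tumours, with no overlap (2.00 ± 0.29, adjusted p = 7.41e-06), and was lower in responders than in stable tumours (-0.81 ± 0.24, adjusted p = 0.0131), the same direction as Entpd1. Bst1, a relative of Cd38, rose from a median of 3.07 CPM in controls to 56.8 CPM in stable tumours (4.09 ± 0.65, adjusted p = 2.42e-05) and 29.3 CPM in responders (3.42 ± 0.62, adjusted p = 5.3e-05), where Cd38 itself was not called. Ahcy, which releases adenosine from S-adenosylhomocysteine inside the cell, fell from a median of 77.9 CPM in controls to 40.7 CPM in stable tumours (-0.81 ± 0.17, adjusted p = 0.000493) and 26.5 CPM in responders (-1.24 ± 0.16, adjusted p = 1e-06). Entpd3, another relative of Entpd1, had medians of only 0.621 CPM in controls and 0.574 CPM in non-responders, and its call in responder minus non-responder (2.60 ± 0.57, adjusted p = 0.00105) came with responders at 0.633 to 10.3 CPM.

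Of 9 other genes of removal and transport tested, 5 were higher in stable minus control, 4 in each of the other comparisons with controls, and none was lower there. Xdh, which carries the inosine pathway on to uric acid, had medians of 56.3 CPM (controls), 125 CPM (non-responders), 271 CPM (stable) and 254 CPM (responders). It was called in every comparison but responder minus stable, at 2.43 ± 0.31 in stable minus control (adjusted p = 2.26e-06) and 1.00 ± 0.26 in responder minus non-responder (adjusted p = 0.0042). The nucleoside transporters Slc29a3 and Slc28a2 rose in each outcome group against controls, by 1.24 ± 0.21 and 1.95 ± 0.32 in stable tumours (adjusted p = 4.14e-05 and 3.02e-05). Pnp2, a tandem copy of Pnp, also rose in counts (1.56 ± 0.36 in responder minus control, adjusted p = 0.000555). The 2 deposited tables disagreed on this difference, so its value is uncertain. In log2(RPKM + 1) the difference was -0.03 (limma adjusted p = 0.933), and the cause was not tested.

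Of the 2 other adenosine receptors, Adora1 was too low to test (mean 0.165 CPM) and Adora3 was called higher in stable minus control (2.27 ± 0.44, adjusted p = 0.000195) and responder minus control (1.54 ± 0.42, adjusted p = 0.00258). Its medians were 0.833 CPM (controls), 1.60 CPM (non-responders), 3.19 CPM (stable) and 1.64 CPM (responders). Of 13 channels and nucleotide receptors tested, 10 were higher and 1 lower in stable minus control, and 8 higher and 1 lower in responder minus control. Panx1, a channel that releases ATP, rose from 7.70 to 9.84 CPM in controls to 17.9 to 31.2 CPM in stable tumours (1.37 ± 0.19, adjusted p = 3.86e-06) and 13.1 to 23.8 CPM in responders (1.03 ± 0.18, adjusted p = 2.84e-05), without overlap. P2ry14 and P2ry6, receptors for UDP-sugars and UDP, rose by 3.02 ± 0.40 and 2.14 ± 0.29 in stable minus control (adjusted p = 2.9e-06 and 3.79e-06). P2rx5, an ATP-gated channel gene, was called in each comparison with controls and in responder minus non-responder (1.18 ± 0.33, adjusted p = 0.00575).

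The 17 genes of Gs and cyclic AMP signalling, which lie downstream of both receptors, did not move one way. In responder minus control 5 were higher and 4 lower, and in stable minus control 3 higher and 4 lower. Calls over all genes were mixed too, with 36.1% up and 28.9% down in the first comparison and 22.2% and 19.6% in the second. Mixed directions are thus not particular to this list. Gnas, which encodes the Gs alpha subunit, fell from a median of 882 CPM in controls to 579 CPM in stable tumours (-0.59 ± 0.17, adjusted p = 0.00656) and 370 CPM in responders (-1.07 ± 0.16, adjusted p = 4.37e-06). Prkaca, a catalytic subunit of protein kinase A, fell likewise (-0.72 ± 0.13, adjusted p = 0.000115, and -1.07 ± 0.12, adjusted p = 2.88e-07). Adcy7, an adenylyl cyclase known from immune cells, rose from 69.1 to 104 CPM in controls to 164 to 261 CPM in stable tumours (1.17 ± 0.16, adjusted p = 3.28e-06) and 174 to 242 CPM in responders (1.21 ± 0.15, adjusted p = 6.22e-07). Pde4a, a phosphodiesterase that degrades cyclic AMP, rose in responders against non-responders (0.73 ± 0.18, adjusted p = 0.00261), stable tumours (0.76 ± 0.18, adjusted p = 0.00469) and controls (1.08 ± 0.20, adjusted p = 5.23e-05). Of 6 melanocytic markers, 6 were lower in responder minus control and in stable minus control, as were 5 of 5 proliferation markers. Ahcy, Prkaca and Gnas were also lower in responder minus stable (-0.43, -0.35 and -0.48, adjusted p = 0.0318, 0.0242 and 0.0159), where 0 of 6 melanocytic markers (median 0.30) and 1 of 5 proliferation markers (lower, median -0.46) were called. In the same comparison 6 of 7 macrophage, 3 of 5 endothelial, 2 of 6 fibroblast and 2 of 6 dendritic cell markers were called lower. None of the T cell, regulatory T cell, B and plasma cell or neutrophil markers was called there. The part of any of these lists in the lower genes was not tested.

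**Figure D5:**
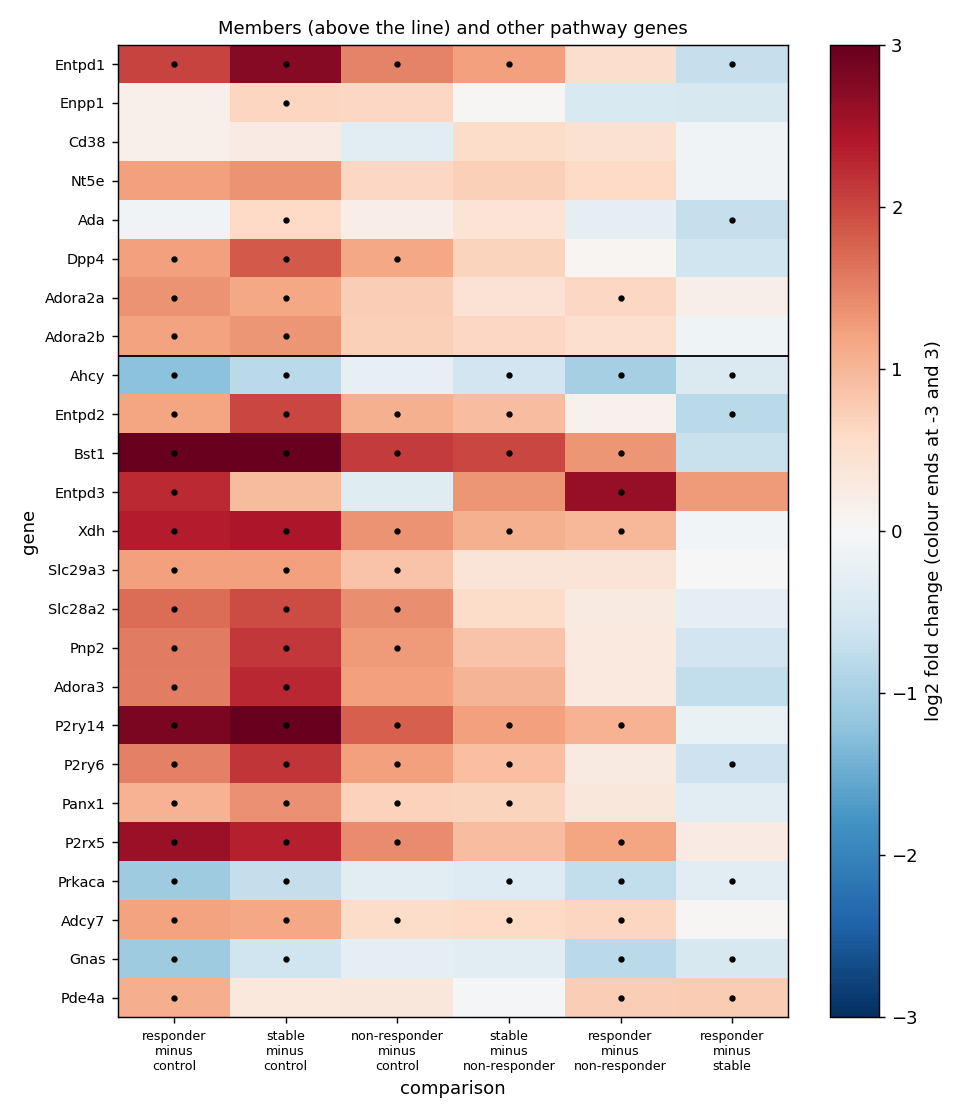
Log2 fold change (colour) of the 8 members (above the line) and the named genes of the other lists (below it) in the 6 comparisons (columns), with a dot for an adjusted p under 0.05. The 3 left columns, the comparisons with controls, are mostly red. Ahcy, Prkaca and Gnas are below 0 in all 3 of these columns. Cd38 and Entpd3 are below 0 in non-responder minus control, and Ada in responder minus control.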

How the data were processed

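RNA of 25 mouse tumours was measured by bulk sequencing. The authors made and deposited expected counts per gene (estimated counts, not normalized) for 55450 genes, in which 5.64% of values were not whole, and RPKM for 19522 gene symbols (19518 unique). How the RPKM lengths and denominators were set is not given in the sources used here. Per the submitters' processing notes, bcl2fastq 2.17, Trimmomatic, STAR 2.5.1, RSEM 1.2.22 and the build mm10 were used. The strand setting of the counting is not given there. Per the labels' protocols libraries came from a kit for stranded total RNA. The molecule label reads polyA RNA instead, which was not resolved. No table held columns of other samples. All 55450 identifiers were in GENCODE release 21 for GRCm38, and each of the 25 tumours matched its own RPKM column best.

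Expected counts were rounded and tested with edgeR 4.0.16 in R 4.3.3 (filterByExpr by group, TMM, robust quasi-likelihood F tests, 4 group means over all 25 tumours, Benjamini-Hochberg over 18031 genes, two-sided). A standard error is the absolute log2 fold change over the root of F. CPM are counts per M of the TMM-scaled library. The labels name no batch. Library numbers run by group, so processing order cannot be told apart from group. Replicates are numbered in record order, which pairs none. No pair of tumours within a group was a duplicated library (chi-square per gene of 17.1 or more), and pairs across groups were not checked.

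The members and lists were chosen with earlier results of these data known. All 8 members are named. From each other list, genes called in at least 1 of 6 comparisons with a mean of at least 1 CPM are named, at most 4 per list by smallest adjusted p. For each member, the 3 protein-coding genes with the highest Spearman correlation are named. Alternatives were 36 planned fits, namely RLE size factors, no or a stricter filter, only the 2 groups compared, protein-coding genes only, the protein-coding share as a covariate, glmTreat at 1.2-fold, DESeq2 1.42.0, 3 limma 3.58.1 fits of log2(RPKM + 1) or log2(RPKM + 0.1) with RPKM of at least 0.5 in 5 tumours or no filter, and each tumour left out. Chosen after seeing the data were 2 more, with the log2 of that share as a covariate and without the 2 tumours of lowest share. The fitting steps were tested on simulated data.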

Additional observations from a re-analysis of the deposited data

Results flagged for a closer look

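Among 44 sets of values (a member's CPM or a library share in 1 group of 5 to 8 tumours), 8 tumours stood far from the rest of their group by the gap to the nearest tumour relative to the group's range. Chance flags about 1 in 20 such sets. For Cd38 they were control 5 at 42.3 CPM and responder 2 at 80.1 CPM. For Dpp4 they were control 3 at 12.2 CPM and non-responder 4 at 29.2 CPM. Nt5e was 199 CPM in non-responder 1. Ada was 4.09 CPM in control 5, which also had the most Entpd1, macrophage marker and T cell marker RNA among controls (24.4, 970 and 24.6 CPM). The share of counts from mitochondrial ribosomal RNA was 7.28% in stable 5 and 14.3% in responder 1. Every stable tumour and responder had a higher share than every control and non-responder, and the part of this in the results was not tested.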

How the results depend on the processing

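The calls of Entpd1, Dpp4, Adora2a and Adora2b in responder minus control and stable minus control, and of Entpd1 in non-responder minus control and stable minus non-responder, were made in all 38 alternatives. The counts of members called in responder minus control and stable minus control moved by no more than 1.5 times. In responder minus non-responder, 2 members were called with RLE size factors, with the stricter filter, in protein-coding genes only, with DESeq2 and with limma without a filter, and 3 with limma at a pseudocount of 1 or 0.1. There, 0 were called with only the 2 groups fitted, with either covariate, with glmTreat and without the 2 tumours of lowest protein-coding share. Leaving out 1 tumour gave 0 to 2. Calls over all genes were 8904 of 18031 with RLE, 6987 of 13173 with the stricter filter and 7139 of 14881 in protein-coding genes. They were 9706 of 32950 with DESeq2, and 7649 of 19518, 7349 of 14529 and 7262 of 14529 in the limma fits, in that order. In the fits with 0 members called they were 6708 of 16858, 1810 and 4627 of 18031, 6088 of 18031 and 7097 of 17974. In stable minus non-responder, 2 were called with the stricter filter and DESeq2, and 1 to 2 when a tumour was left out. All genes called were 2730 of 13173 with the stricter filter and 3485 of 32950 with DESeq2. In responder minus stable, 1 was called with no filter, the stricter filter, protein-coding genes only, glmTreat and without the 2 tumours of lowest share, 0 with either covariate and the 3 limma fits, and 1 to 3 when a tumour was left out. All genes called were 5708 of 32985, 5123 of 13173, 4615 of 14881, 3396 of 18031 and 4018 of 17974 where 1 was called. They were 0 and 322 of 18031 with the covariates, and 5470 of 14529, 5308 of 14529 and 5518 of 19518 with limma. In non-responder minus control, 1 was called with no filter, only the 2 groups, glmTreat and limma without a filter, 4 with the stricter filter and the share as covariate, and 1 to 5 when a tumour was left out. All genes called were 1934 of 32985, 1559 of 16569, 1598 of 18031 and 2038 of 19518 where 1 was called. They were 2303 of 13173 and 2882 of 18031 where 4 were called. For fits without 1 tumour, all-gene counts are not set beside the members' counts here.

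Small differences changed sign. With limma on log2(RPKM + 1), with or without a filter, and on log2(RPKM + 0.1), Ada was 0.17 and 0.24 in responder minus non-responder, 0.012 and 0.011 in responder minus stable and 0.43 and 0.63 in responder minus control, and Adora2b was 0.031 and 0.061 in responder minus stable. Pnp2 was -0.027 and -0.037 in responder minus control. With the protein-coding share or its log2 as a covariate or without the 2 tumours of lowest share, Dpp4 was -0.024, -0.028 and -0.028 in responder minus non-responder, and in responder minus stable Cd38 was 0.40, 0.25 and 0.093 and Nt5e 0.46, 0.25 and 0.11. Adora2b was 0.066 in responder minus stable with the share. With no filter, Dpp4 was -0.015 in responder minus non-responder, Enpp1 -0.025 in stable minus non-responder and -0.021 in responder minus control, and Cd38 -0.037 in responder minus control. Ada was 0.037 in responder minus control with the stricter filter. With 1 tumour left out, Dpp4 ran from -0.050 to 0.43 in responder minus non-responder, Enpp1 from -0.066 to 0.13 in stable minus non-responder, and Nt5e from -0.14 to 0.82 in non-responder minus control. In responder minus stable, the ranges were -0.45 to 0.0048 for Cd38, -0.51 to 0.051 for Nt5e and -0.25 to 0.040 for Adora2b. In responder minus control, they were -0.21 to 0.31 for Cd38 and -0.16 to 0.025 for Ada. The cause was not tested.

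Over all genes, edgeR called 8823 in responder minus non-responder and 6891 in responder minus stable. With that share as a covariate these were 1810 and 0 (2296 under an unadjusted p of 0.05), and with its log2 they were 4627 and 322, of which 96.6% were higher against 53.5% in the fit without it. DESeq2 called 7682 in responder minus stable, limma 5308 to 5518, glmTreat 3396, and edgeR without the 2 tumours of lowest share 4018. Stable minus non-responder fell to 1193 with glmTreat, and to 1470, 1517 and 1523 without non-responder 2, non-responder 3 and stable 3. Non-responder minus control was 1559 with only the 2 groups, 1598 with glmTreat, 1593, 1570 and 1634 without control 1, control 4 and non-responder 4, and 4237 without non-responder 3. In protein-coding genes only, the median of all genes in responder minus control was 0.04 against 0.16. No paired analysis was possible because the labels give no replicate numbers that the groups share. Depth limits Ada, Adora2a and Adora2b most, with 14 to 237 counts per tumour.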
